A study of Danio rerio with 12 samples.

Results

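The gene tmigd1 (transmembrane and immunoglobulin domain containing 1, NCBI Gene 559127) was followed over 4 doses of the herbicide atrazine in whole zebrafish larvae. It was chosen from earlier results of these same arrays, in which its mean intensity at 3 and 30 ppb lay apart from that at 0 ppb. Its values in those comparisons are therefore given as a description, with no test. Its members are the 9 array features (spots, each one oligonucleotide probe) that the platform annotation assigns to its symbol, all from 1 target, out of 385000 features on the array. The gene is 1 of 2650 genes measured under a symbol.

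RNA came from pools of 50 wild-type AB larvae at 72 hours after fertilization, with 3 pools at each of 0, 0.3, 3 and 30 ppb atrazine. Larvae were homogenised whole, and dosing ran from about 1 hour after fertilization until collection. The 12 pools went onto 12 single-colour NimbleGen arrays, labelled with Cy3. The labels name the pools biological replicates without saying whether they came from separate clutches, so a p-value measures the spread between these pools. Median intensity was 529 to 530 on every array, and the number of arrays limits the precision.

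In humans and mice the protein is an adhesion molecule of the epithelial surface, with an immunoglobulin-type extracellular part, a single membrane span and a short tail inside the cell. It is best known from absorptive cells of the intestine and kidney tubule, where it sits at the brush border and binds scaffold proteins that tie the membrane to actin. It has been linked there to protection from oxidative injury. Whole larvae mix many tissues, so a change in the number of cells of a type and a change in RNA per cell cannot be told apart in these values.

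The log2 intensity of tmigd1, averaged over its 9 features, was low at 0 and 0.3 ppb and higher at 3 and 30 ppb. In the 3 pools at 0 ppb it was 6.27, 6.37 and 6.27. In those at 0.3 ppb it was 6.29, 6.45 and 6.24. The control values thus lay within the wider range of the lowest-dose pools. At 3 ppb the 3 values were 7.24, 6.78 and 6.80. At 30 ppb they were 7.13, 7.12 and 6.71. All 6 pools at the 2 higher doses lay above all 6 pools at the 2 lower ones, with 0.26 between the lowest of the former and the highest of the latter. Over all units (a unit is a gene with a symbol, or an unnamed target), 0.509% showed this separation in the upward direction. Since the gene was picked for higher values at 3 and 30 ppb than at 0 ppb, nothing is read from that share.

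**Figure D1:**
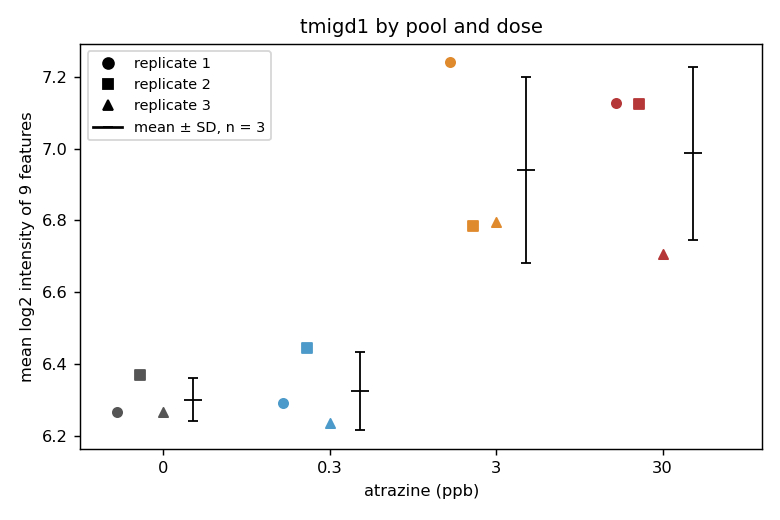
Mean log2 intensity of the 9 features of tmigd1 (vertical axis) against the atrazine dose in ppb (horizontal axis, evenly spaced). Each symbol is 1 pool, and the bar beside it is the mean ± SD of 3 pools. The pools at 0 and 0.3 ppb lie between 6.24 and 6.45, and those at 3 and 30 ppb between 6.71 and 7.24.

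As means the levels were 6.30 ± 0.06 at 0 ppb, 6.32 ± 0.11 at 0.3 ppb, 6.94 ± 0.26 at 3 ppb and 6.99 ± 0.24 at 30 ppb (SD, n = 3 each). The difference from 0 ppb was 0.64 (SE 0.16) at 3 ppb, or 1.56-fold, and 0.69 (SE 0.16) at 30 ppb, or 1.61-fold. At least as large a difference was found in 286 units at 3 ppb, 7 of them named, and in 244 at 30 ppb, 5 of them named, with tmigd1 counted among them. Against 0.3 ppb the differences were 0.62 and 0.66 (SE 0.16 each). The doses therefore stood in the order 0, 0.3, 3 and 30 ppb, with 1 step between the second and the third and with neighbours on either side of that step closer together than their spread.

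The comparisons of 0.3 with 0 ppb and of 30 with 3 ppb were tested in limma's fit over all 37144 units. They were not those that chose the gene, but each shares pools with one that was. The choice may have shaped these differences too, so a missing call is not read as absence of a difference. Between 0.3 and 0 ppb tmigd1 differed by 0.02 (SE 0.16, 95% interval -0.32 to 0.37, adjusted p = 1), with the 2 groups overlapping. Between 30 and 3 ppb it differed by 0.05 (SE 0.16, 95% interval -0.30 to 0.39, adjusted p = 1), again with overlap. Neither passed, and the intervals hold differences in both directions. For background, limma called 0% of units past an adjusted p of 0.05 in each of these comparisons. At an unadjusted p under 0.05 it called 0.463% of units as higher and 1.02% as lower between 0.3 and 0 ppb, and 0.762% in both directions together between 30 and 3 ppb.

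The 9 features did not share the step evenly. Each is called here by the number at the end of its ID, from 1 to 1083. Of the 9, 5 were higher and 4 lower at 3 ppb than at 0 ppb, and 6 were higher and 3 lower at 30 ppb. The median difference over the features was 0.13 at 3 ppb and 0.19 at 30 ppb, well short of the mean. Most of the difference in the mean came from features 1083 and 1, those with the highest and the lowest number. A median taken over the 9 features within each pool, before the pools were averaged, did not shrink in the same way: it differed from 0 ppb by 0.65 at 3 ppb and by 0.50 at 30 ppb (SE 0.26 each). Against 0.3 ppb, features 380 and 898 were lower at 3 ppb, by log2 differences of -0.43 and -0.81. All others were higher there, from 0.07 for feature 839 to 3.01 for feature 1083. At 30 ppb features 380, 839, 898 and 1040 were lower than at 0.3 ppb, by -0.62, -0.12, -0.17 and -0.20, and the others were higher.

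Feature 1083 differed most. Its log2 intensity at 0 ppb was 7.33, 7.70 and 5.01. At 0.3 ppb it was 5.86, 8.18 and 6.58. These 6 values were widely scattered, and the groups overlapped. At 3 ppb the feature read 9.76, 9.26 and 10.63. At 30 ppb it read 9.73, 10.74 and 9.99. All 6 of these values lay above all of the 6 at the lower doses, the lowest being 9.26 and the highest of the others 8.18. It was the only feature of the gene to separate the doses in this way, which 0.461% of all features on the array did. The feature is a large part of the gene mean on which tmigd1 was chosen, so nothing is read from that share.

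The mean of feature 1083 was 6.68 ± 1.46 at 0 ppb, 9.88 ± 0.69 at 3 ppb and 10.15 ± 0.53 at 30 ppb (SD, n = 3). These are differences of 3.2 and 3.48, or 9.21-fold and 11.1-fold. The control mean depends on the third pool at 0 ppb, the dimmest at 5.01, and without it the folds were 5.15 and 6.23. Across all 385000 features, 35 differed by at least as much at 3 ppb and 9 at 30 ppb, itself included. These ranks are a description, since the same values had a part in the choice of the gene. On its array the feature was brighter than 2.84% of all features in the dimmest pool and than 73.2% in the brightest. It stood above the array median in 6 pools, all of them at 3 or 30 ppb.

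Feature 1 was also higher, but less evenly. At 0 ppb it read 5.63, 5.77 and 5.57. At 0.3 ppb it was 6.22, 6.57 and 5.99, with every pool above the control pools. At 3 ppb it read 9.54, 6.52 and 6.86. At 30 ppb it read 8.42, 7.90 and 7.09. The first of the 3 ppb pools stood far above the other two, and the lowest 3 ppb pool, at 6.52, fell just under the highest at 0.3 ppb. Its differences from 0 ppb were 0.60 at 0.3 ppb, 1.99 at 3 ppb and 2.15 at 30 ppb (SE 0.63 each, from the fit of single features). Without the first pool at 3 ppb the difference there was 1.03.

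Over the 12 pools these 2 features correlated with r = 0.70, but for the deviations from the dose means, all doses together, r was 0.08. The doses differed in this. At 0 ppb the pools stood in the same order for both features, and at 0.3 ppb both were highest in the second pool. At 3 and 30 ppb the features were highest in different pools. The pool in which feature 1 was highest, the first at 3 ppb, was not the one in which feature 1083 was highest. These correlations describe 2 features measured on the same arrays.

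**Figure D2:**
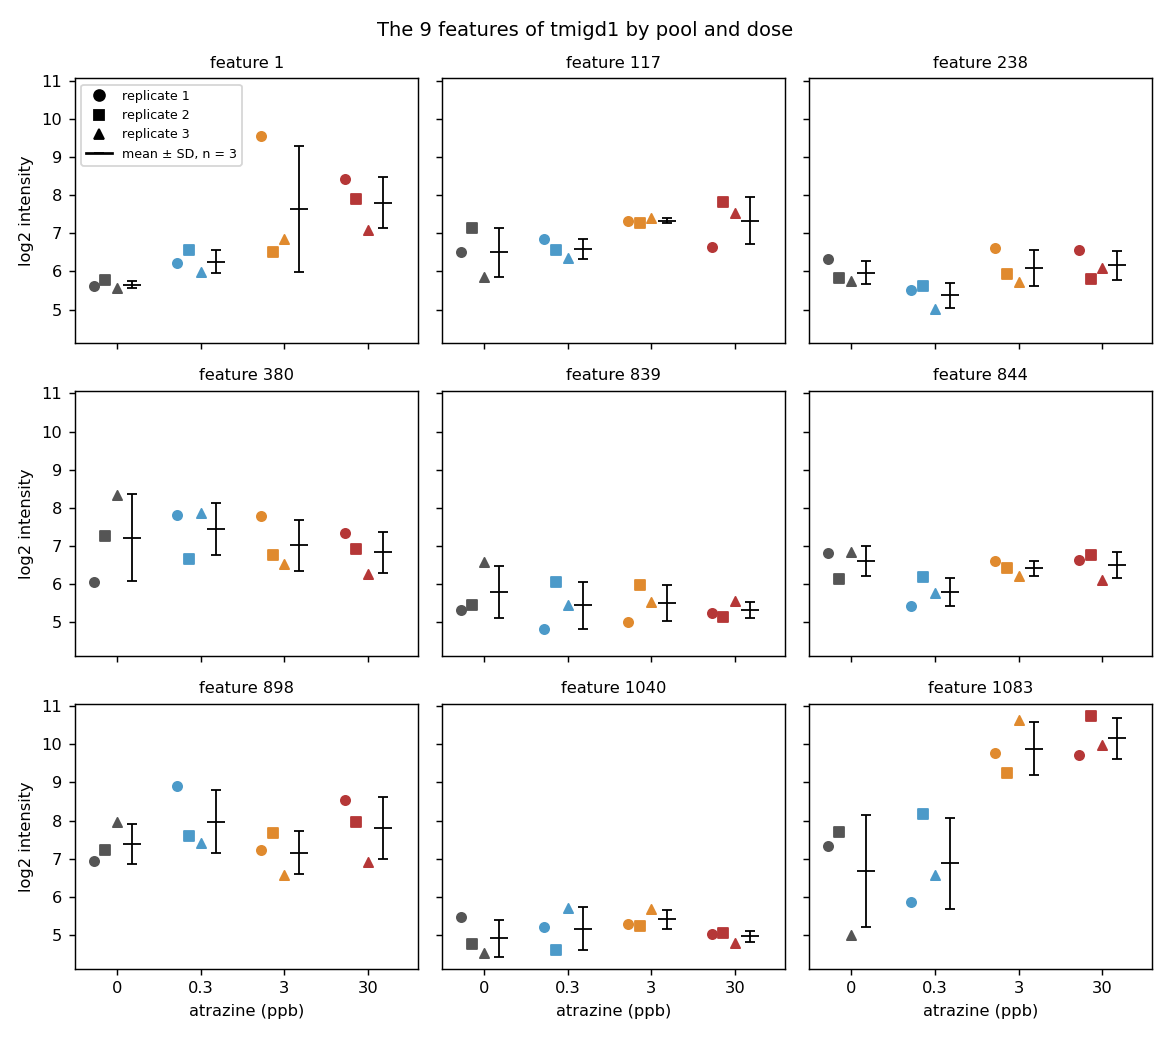
Log2 intensity (vertical axis, the same in all panels) of each of the 9 features of tmigd1 against the atrazine dose in ppb. Each symbol is 1 pool, and bars are the mean ± SD of 3 pools. Feature 1083 lies between 5.01 and 8.18 at the lower doses and between 9.26 and 10.74 at the higher ones, while in most other panels the doses overlap.

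Averaged together, the other 7 features showed little difference between doses. Their mean per pool was 6.21, 6.26 and 6.55 at 0 ppb, and 6.36, 6.18 and 6.22 at 0.3 ppb. It was 6.55, 6.47 and 6.24 at 3 ppb, and 6.57, 6.50 and 6.18 at 30 ppb. All 4 groups overlapped. The means were 6.34 ± 0.18, 6.25 ± 0.10, 6.42 ± 0.16 and 6.42 ± 0.21 (SD, n = 3) in order of dose. The differences from 0 ppb were 0.08 at 3 ppb and 0.08 at 30 ppb, or 1.06-fold for both. From 0.3 ppb they were 0.165 and 0.163 (SE 0.15 each). The average covers features that differed in opposite directions. Against 0.3 ppb features 117, 238 and 844 were higher by 0.74, 0.72 and 0.62 at 3 ppb (SE 0.37, 0.32 and 0.30). At 30 ppb they were higher by 0.74, 0.79 and 0.71. Features 238 and 844 were themselves lower at 0.3 than at 0 ppb, by -0.59 and -0.81. Against 0 ppb they differed by only 0.13 and -0.19 at 3 ppb and by 0.19 and -0.09 at 30 ppb. Feature 117 was higher than at 0 ppb by 0.83 at both doses. Against 0.3 ppb, features 380 and 898 were lower at both doses (SE 0.56 and 0.50), and 839 and 1040 differed by 0.07 and 0.24 at 3 ppb. Leaving features 1 and 1083 out was a choice made after their values were seen.

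Expressed as parts of the difference in the gene mean from 0 ppb, feature 1083 contributed 0.36 of the 0.64 at 3 ppb and 0.39 of the 0.69 at 30 ppb. These are 55.7% and 56.3%. Feature 1 contributed 34.5% and 34.8%. Together they made up 90.2% at 3 ppb and 91.1% at 30 ppb, and feature 117 added 14.4% and 13.4%. With 0.3 ppb as the baseline the share of features 1 and 1083 was lower, since the mean of the others differed by 0.165 and 0.163. The remaining 6 features contributed between -0.05 and 0.05 each at these 2 doses, in both directions.

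**Figure D3:**
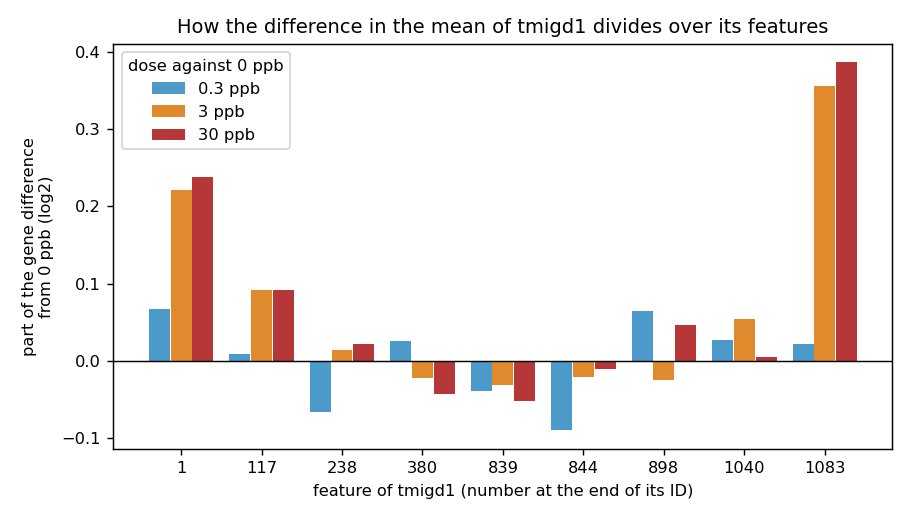
Part of the log2 difference in the mean of tmigd1 that each feature contributes (vertical axis, the feature's own difference divided by 9) for 0.3, 3 and 30 ppb against 0 ppb. Features are ordered by the number at the end of their ID, and features 1 and 1083, at the 2 ends, have the tallest bars at 3 and 30 ppb.

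Feature 117, the next by number after feature 1, read 6.50, 7.15 and 5.86 at 0 ppb and 7.32, 7.27 and 7.41 at 3 ppb, where the groups did not overlap. At 30 ppb it read 6.64, 7.81 and 7.54, and the lowest pool fell within the control range. Its difference was 0.83 at either dose (SE 0.37). Counting all features of the gene, 3 of 9 had every 3 ppb pool above every control pool and 0 had every one below. At 30 ppb the counts were 2 and 0, and at 0.3 ppb 1 and 1. Among all features of the array, 4.01% lay wholly above and 4.08% wholly below at 3 ppb, 4.12% and 3.5% at 30 ppb, and 2.55% and 2.39% at 0.3 ppb.

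Of the middle features, 380, 839 and 844 were lower than control at both higher doses, by 0.20 and 0.38, 0.27 and 0.46, and 0.19 and 0.09 at 3 and 30 ppb. Every one of these groups overlapped the control pools. Feature 238 was the one whose 0.3 ppb pools all lay below the controls, at 5.37 ± 0.32 against 5.97 ± 0.31 (SD, n = 3). Feature 898 was at 7.38 ± 0.52 in controls and at 7.97 ± 0.82, 7.16 ± 0.56 and 7.80 ± 0.81 in order of dose. Feature 1040, which neighbours feature 1083 by number, was among the dimmest features of the array. Its log2 intensity was 4.92 ± 0.49 in controls, 5.41 ± 0.25 at 3 ppb and 4.96 ± 0.14 at 30 ppb.

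In the fit of all 385000 features, the same comparisons of 0.3 with 0 ppb and of 30 with 3 ppb gave no call for any feature of the gene. Between 0.3 and 0 ppb the smallest unadjusted p was that of feature 844, which was lower by a log2 difference of -0.81 (SE 0.30, unadjusted p = 0.0185, limma adjusted p = 1). Between 30 and 3 ppb the smallest was that of feature 1040 (difference -0.45, SE 0.33, unadjusted p = 0.197, limma adjusted p = 1). Feature 1083 differed by 0.20 (SE 0.72) in the former and by 0.27 (SE 0.72) in the latter. Over the array limma called 0 features in either comparison, with 7476 and 5642 at an unadjusted p under 0.05.

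Most of the gene lay close to the lower end of the intensity scale. In every pool 7 of the 9 features were dimmer than the array median, and feature 1 rose above it in 1 pool. The gene mean exceeded that of at most 17.3% of units in the pools at 0 and 0.3 ppb and of 19.5% to 24.9% at 3 and 30 ppb. No background call could be made from the deposited values. Differences between dim features are therefore given as intensities and not as bounds.

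The disagreement between features was large for this array. The SD of the 30 ppb difference over the 9 features was 1.31. The median of this SD was 0.30 over the 35384 units with at least 5 features, and 99.96% of these had a lower value. At 3 ppb the SD was 1.21 against a median of 0.30, higher than in 99.92% of units. The highest feature difference exceeded the gene's median feature difference by 3.08 at 3 ppb and 3.28 at 30 ppb, where the median unit showed 0.45 and 0.49. At 0.3 ppb the SD was 0.50 against 0.29, higher than in 90.9% of units, while the highest feature exceeded the median feature by 0.41 against 0.39 in the median unit, higher than in 51.9%. These ranks are a description, as the gene was chosen on the same arrays.

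Over the array, the share of features that were higher by at least 1 than at 0 ppb varied with their place in the numbering of their target. Of the features with the lowest number in their target, 2.58% were higher by at least 1 at 3 ppb and 2.5% at 30 ppb. Of those with the highest number, 1.74% and 1.82% were. The features between them gave 1.68% at either dose. Of the 7531 features numbered 1, 3.21% and 3.16% were higher by at least 1. At 0.3 ppb the shares were 1.3% for the features numbered 1, 1.03% for the lowest-numbered, 0.774% for the highest-numbered and 0.682% for those between. The median differences followed this order only in part. At 3 ppb they were 0.03 for the features numbered 1, -0.01 for the lowest-numbered, -0.03 for the highest-numbered and -0.01 for the features between. At 30 ppb they were -0.02, -0.03, -0.02 and -0.03. Reading the number as a position within the target is an assumption that no table used here states.

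A gradient of log2 intensity along that number was also fitted to each array, after subtracting each feature's average over the 12 arrays. It is expressed as a slope per 1000 of the number, and whether any slope differs from 0 was not tested. For scale, feature 1 ranged over 3.97 and feature 1083 over 5.74 in log2 among the 12 pools. The first pool at 3 ppb had the lowest slope, -0.025, and the first at 30 ppb the next, -0.021. They were also the pools with the highest values of feature 1, at 9.54 and 8.42. Slopes ran from 0.002 to 0.019 at 0 ppb, from -0.011 to 0.003 at 0.3 ppb, from -0.025 to 0.001 at 3 ppb and from -0.021 to 0.029 at 30 ppb. The third pool at 30 ppb, at the upper end, had 9.99 for feature 1083, between the 9.73 and 10.74 of the other pools at 30 ppb. With the slope as a covariate the gene's difference from 0 ppb was 0.45 at 3 ppb (SE 0.16) and 0.61 at 30 ppb (SE 0.14). For deviations from the dose means, the gene mean and the slope correlated with r = -0.70 over the 12 pools, feature 1 and the slope with -0.65 and feature 1083 and the slope with 0.29. The gene mean also followed the main axis of variation among arrays within doses (r = 0.49), an axis that holds 41.4% of the variance and on which the first pool at 3 ppb had the highest score, 0.29, although the ranges of all 4 doses overlap. These values share their arrays, and beyond the covariate their part in the step was not tested.

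Among 2457 other named genes, those whose intensity followed tmigd1 most closely over the 12 pools encoded hormones and neuropeptides, a tubulin-modifying enzyme, immune and matrix proteins and enzymes. Of the 10 with the highest Pearson r, 9 are described here, by likeness alone. They were picked from many genes for that value, and the 12 points share their arrays. The gene mean they were compared with correlated with feature 1 at r = 0.93 and with feature 1083 at 0.85. With the mean of the other 7 features it was 0.57. With feature 1083 alone, the 9 genes had r from 0.56 for prss60.1 to 0.90 for ttll11. The gene closest to the mean of tmigd1 was lhb, the beta subunit of luteinizing hormone, with r = 0.96 (Spearman rho 0.86). Another was npffl, a neuropeptide FF-like gene, with r = 0.93 (rho 0.87). In both, as in tmigd1, every pool of the 2 higher doses lay above every pool of the 2 lower ones. This held for 11 of the 2457 genes.

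The other 7 had r between 0.85 and 0.88. They were ttll11, of the tubulin glutamylase family, dntt, which adds nucleotides to antigen receptor gene ends, the vasopressin gene avp, the serine protease gene prss60.1, the interleukin 12 subunit gene il12a, bco1l, related to carotenoid-cleaving oxygenases, and mgp, a matrix protein that limits calcification. All of these except prss60.1 and bco1l also had every pool of the 2 higher doses above every pool of the lower ones. Without the 2 pools farthest from the median of tmigd1, the first at 3 and the first at 30 ppb, the 9 values of r ran from 0.72 to 0.94.

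Part of this likeness lay within doses and part between them. For deviations from the dose means r was 0.85 for lhb, 0.83 for prss60.1 and 0.65 for npffl, and it was 0.35 for mgp. The differences at 3 ppb were 1.44 for lhb, 0.79 for npffl, 0.69 for il12a and 0.63 for avp, against 0.64 for tmigd1. At 30 ppb they were 1.42, 0.72, 0.45 and 0.49, against 0.69. At the opposite end stood ankdd1a (r = -0.87), nubp1, of iron-sulfur cluster assembly (r = -0.86), and the kinase gene map3k20b (r = -0.86).

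Several of the like genes were higher over more of their features. At 3 ppb 10 of 11 features of lhb, 12 of 12 of npffl, 11 of 12 of avp and 10 of 12 of il12a were higher than control, where tmigd1 had 5 of 9. Their median feature differed by 1.09, 0.79, 0.66 and 0.56, where that of tmigd1 differed by 0.13. This did not hold for all of the like genes. The median feature differed by 0.19 for dntt and 0.21 for ttll11 at 3 ppb, close to tmigd1, and at 30 ppb it was 0.17 for il12a, against 0.19 for tmigd1. The SD over features was 1.38 at 3 ppb and 1.3 at 30 ppb for lhb, and 1.21 and 1.31 for tmigd1. Among the other 8 it was at most 0.95 at 3 ppb and 0.90 at 30 ppb.

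**Figure D4:**
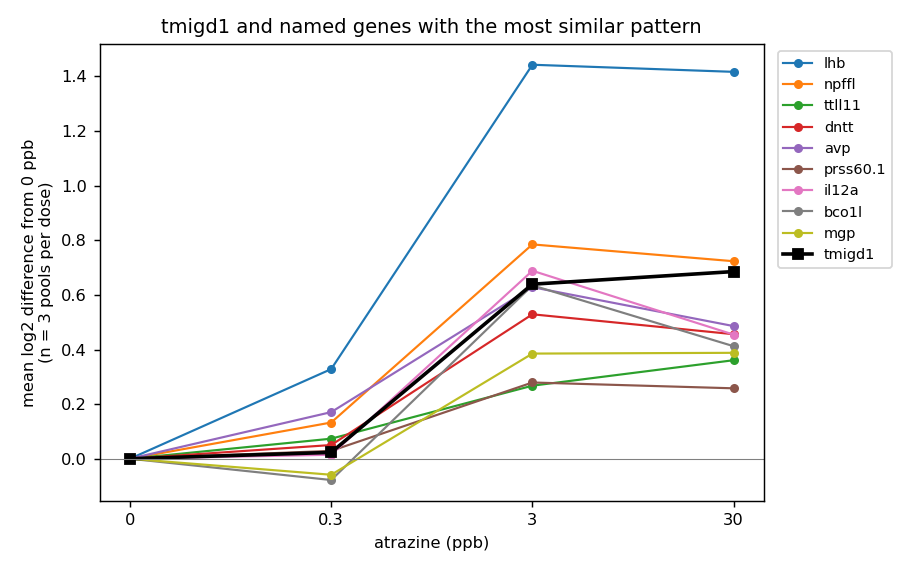
Mean log2 difference from 0 ppb (vertical axis, 3 pools per dose) against the atrazine dose in ppb for tmigd1 (thick black line) and 9 of the 10 named genes with the highest Pearson r over the 12 pools. At 0.3 ppb all lie between -0.08 and 0.33, and tmigd1 reaches 0.64 and 0.69 at 3 and 30 ppb.

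Genes listed by family, tissue, function or place in the cell, not all of these shared with tmigd1, gave no calls at any dose. Across 8 lists with 62 measured genes, from 378 entries, limma called 0 genes past an adjusted p of 0.05 at any dose, and 0 reached an unadjusted p under 0.05 in either direction. Over all units the adjusted calls were 0% at each dose. Unadjusted, 2.15% of units were higher and 0.87% lower at 3 ppb, and 2.03% were higher and 0.466% lower at 30 ppb. The smallest unadjusted p of the 62 genes was 0.0506, for irx3b at 0.3 ppb, and the counts below are read as directions of small differences.

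Immunoglobulin superfamily adhesion and receptor genes, the wider family of tmigd1, had 15 measured members besides it. Of these, 11 were lower at 3 ppb and 12 at 30 ppb, with medians of -0.07 at either dose, and 6 were lower at 0.3 ppb (median 0.06). The median of all units was -0.01 at 3 ppb, -0.02 at 30 ppb and 0.00 at 0.3 ppb. Over the named genes alone, to which all list members belong, it was -0.01, -0.04 and 0.01 in the same order. The neuronal adhesion genes cadm3, cntn4, dscama and lsamp differed by -0.05, -0.10, -0.12 and -0.15 at 3 ppb and by -0.06, -0.07, -0.10 and 0.07 at 30 ppb (SE 0.14 to 0.21). At 0 ppb the level of cadm3 was 12.37 ± 0.05 and at 30 ppb 12.31 ± 0.24 (SD, n = 3).

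Epithelial junction and polarity genes numbered 18, of which 9 were higher at 3 ppb and 4 at 30 ppb, with medians of 0.00 and -0.07, and 6 at 0.3 ppb (median -0.03). The alpha-catenin gene ctnna1, which links cadherins to actin, differed by -0.12 and -0.07 at 3 and 30 ppb (SE 0.13). The keratin gene krt97 differed by 0.14 and -0.04 (SE 0.15). The tight junction genes cldn7a and cldn19 differed by 0.03 and -0.16 (SE 0.17) and by -0.02 and -0.12 (SE 0.15).

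Of the brush border and ezrin-radixin-moesin scaffold genes, 4 were measured, and all 4 were lower at 3 ppb, 3 at 30 ppb and 2 at 0.3 ppb (medians -0.10, -0.07 and 0.01). The intermicrovillar scaffold gene anks4b differed by -0.15 and -0.08 at 3 and 30 ppb (SE 0.18), and the actin-bundling plastin gene pls3 by -0.04 and -0.13 (SE 0.18). The myosin genes myo6a and myo7aa differed by -0.25 and 0.02 (SE 0.16) and by -0.04 and -0.06 (SE 0.18). The ezrin, moesin and NHERF-type scaffold genes were entries of this list, but none was found under a symbol among the units.

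Of 4 intestinal markers, 2 were higher and 2 lower at 3 ppb and at 30 ppb, with medians of 0.05 and 0.01, and 3 were higher at 0.3 ppb (median 0.08). The enterocyte fatty acid-binding gene fabp1b.1 was at 12.45 ± 0.27 in controls, 12.56 ± 0.13 at 3 ppb and 12.44 ± 0.11 at 30 ppb (SD, n = 3). The intestinal homeobox genes cdx1a and cdx1b differed by 0.15 and -0.01 at 3 ppb and by 0.06 and -0.05 at 30 ppb, and the adenosine deaminase gene ada by -0.16 and 0.02.

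Of 8 kidney markers, 4 were higher at 0.3 ppb, 4 at 3 ppb and 5 at 30 ppb, with medians of 0.01, -0.02 and 0.01. The transcription factor genes gata3 and irx3b differed by 0.19 and 0.06 at 3 ppb and by 0.37 and 0.04 at 30 ppb (SE 0.18 and 0.12). The organic anion transporter gene slc22a6l and the phosphate transporter gene slc34a2b differed by -0.05 and 0.01 at 3 ppb and by -0.04 and 0.04 at 30 ppb.

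Oxidative stress defence genes numbered 7, of which 3 were higher at 0.3 ppb, 3 at 3 ppb and 5 at 30 ppb (medians -0.08, -0.03 and 0.04). The peroxidase genes gpx4b and prdx6 differed by 0.04 and -0.03 at 3 ppb, the glutathione transferase gene gstp1.1 by -0.04 and the heme oxygenase gene hmox1b by 0.17. At 30 ppb the 4 differed by -0.05, -0.05, 0.19 and 0.04.

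Of 5 epidermis and ionocyte markers, 1 was higher at 0.3 ppb and 4 at both 3 and 30 ppb, with medians of -0.06, 0.17 and 0.06. The epidermal gene agr1 differed by -0.02 and 0.10 at the 2 higher doses, the carbonic anhydrase gene ca15a by 0.04 and 0.02, the ionocyte factor gene foxi3a by 0.17 and 0.06 and the calcium channel gene trpv6 by 0.17 and -0.11. The ammonium transporter gene rhcga, named after its values were seen, differed by 0.67 at either dose with an SE of 0.40 (limma adjusted p = 1). It was the only listed gene whose difference at 3 ppb was as large as that of tmigd1. The pancreatic protease genes ctrb.3 and prss59.1, the 2 measured of the liver, exocrine pancreas and hatching gland list, were both lower at 0.3 ppb (median -0.44) and both higher at 3 and 30 ppb (medians 0.35 and 0.36). Their SE were 0.49 and 0.51, and their part in the step of tmigd1 was not tested.

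**Figure D5:**
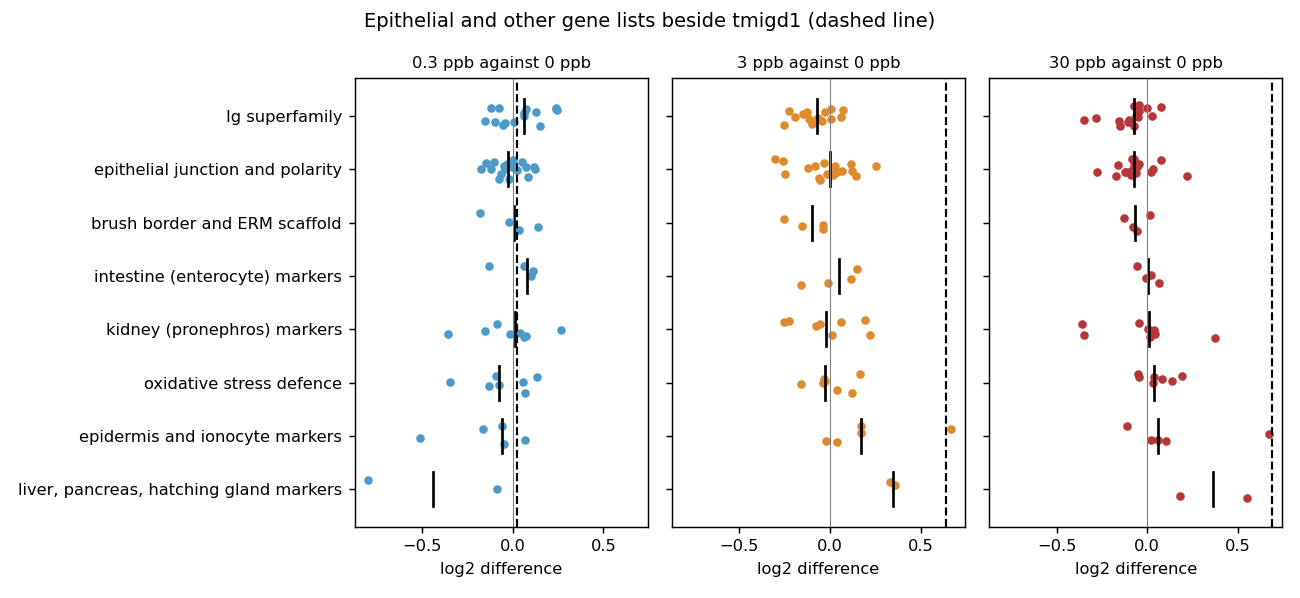
Log2 difference from 0 ppb (horizontal axis) of each measured member of 8 gene lists at 0.3, 3 and 30 ppb. Points are genes, short black lines the list medians and the dashed line tmigd1. At 3 and 30 ppb the points of most lists lie around 0 and left of tmigd1, which stands at 0.64 and 0.69.

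The measured genes nearest to tmigd1 in the RefSeq gene order of assembly GRCz12tu, used for names and order only, showed no called difference. No other gene of that table overlaps tmigd1. On one side plrdgb, 2 genes away, was at 8.19 ± 0.22 in controls, 8.24 ± 0.11 at 3 ppb and 8.07 ± 0.17 at 30 ppb (SD, n = 3). On the other slc47a2.1, a multidrug and toxin extrusion transporter gene also 2 genes away, was at 6.82 ± 0.22, 6.80 ± 0.11 and 6.74 ± 0.19. Differences from 0 ppb were 0.05 and -0.12 for plrdgb (SE 0.15) and -0.02 and -0.07 for slc47a2.1 (SE 0.16), each with a limma adjusted p of 1.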

How the data were processed

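The authors deposited linear fluorescence intensities, 1 column per array, and per the submitters' processing notes these were made with RMA (no version is given). The quantiles were nearly equal on all arrays, and features had not been summarised to transcripts. Slide and background settings: not given in the sources used here.

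Intensities were transformed to log2. Features were named by the platform annotation, then by RefSeq accession (30725 of 385000 features, 354275 unnamed), and those of a gene or target were averaged to 37144 units. Group means over all 12 arrays were fitted with limma 3.58.1 (R 4.3.3), with Benjamini-Hochberg adjustment over all units. Python 3.11.15, numpy 2.4.6, pandas 2.3.3 and matplotlib 3.10.9 did the rest. No filter on dim units was applied in the main fit. The fit was tested on simulated data.

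The gene, the lists and the rules were chosen with earlier results of these data known. The text names tmigd1 and its features, 9 of the 10 named genes with the highest Pearson r to it (1 is not reported here) and the 3 with the lowest (192 symbols that are clone or locus IDs left out), and all listed members where at most 4 are measured. In longer lists it names the 4 brightest. It also names the nearest measured gene on each side. The lists cover immunoglobulin superfamily, junction, brush border, intestine, kidney, oxidative stress, epidermis and ionocyte, and liver, pancreas and hatching gland genes.

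Alternatives were a filter on dim units, other summaries of features, other normalizations, array weights, a gradient along feature number, a replicate block, fewer groups, and leaving out each feature or pool in turn.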

Additional observations from a re-analysis of the deposited data

How the results depend on the processing

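The differences of tmigd1 at 3 and 30 ppb from 0 and 0.3 ppb kept their sign under every alternative run. The gene was chosen for higher values at 3 and 30 ppb on these arrays, so a kept sign is not read as support. The size of the differences depended on the features used. Without feature 1083 they were 0.319 (3 against 0 ppb), 0.337 (30 against 0 ppb), 0.317 (3 against 0.3 ppb) and 0.335 (30 against 0.3 ppb), with SE 0.18 each. Without both features 1 and 1083, chosen after seeing the data, they were 0.081, 0.078, 0.165 and 0.163 in the same order (SE 0.15 each). Between 3 and 0 ppb median polish gave 0.421 and the gradient covariate 0.445, and the median of features gave 0.650, 0.500, 0.618 and 0.468 in the order above. Leaving out each pool in turn gave 0.489 to 0.717 (3 against 0 ppb), 0.615 to 0.825 (30 against 0 ppb), 0.466 to 0.694 (3 against 0.3 ppb) and 0.592 to 0.802 (30 against 0.3 ppb).

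The differences near 0 changed sign without reaching the threshold. Between 0.3 and 0 ppb the value was -0.077 with median polish, -0.023 with cyclic loess and -0.096 with the gradient covariate. It was -0.049, -0.003, -0.047 and -0.005 without features 1, 380, 898 and 1040, and -0.084 without features 1 and 1083. Without single pools it ran from -0.037, without the second at 0.3 ppb, to 0.067. Between 30 and 3 ppb it was -0.150 with the median of features, -0.028 without feature 898 and -0.002 without features 1 and 1083. Without single pools it ran from -0.032 to 0.196, and was below 0 without replicate 2 or 3 at 3 ppb or replicate 1 or 2 at 30 ppb. Array weights gave 0.278 there (limma unadjusted p = 0.00461, adjusted p = 0.0604). With these weights 9267 of 37144 units had an unadjusted p under 0.05 in limma for 30 against 3 ppb, where the main fit had 283. Beyond what each omission removes, the cause was not tested.

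The replicate block left the differences from 0 ppb at 0.023, 0.639 and 0.686 and changed no call of tmigd1. Over 18 pairs of pools that share a number, deviations from the dose means correlated with r from -0.37 to 0.68, and 6 of the 12 pools correlated best with one of their own number. With the block, units at an unadjusted p under 0.05 in limma rose from 551 to 979 (0.3 against 0 ppb) and from 1123 to 1576 (3 against 0 ppb). These values do not decide whether the numbers pair the pools, and the main fit left the number out. Leaving out the dimmest units gave no value, because tmigd1, brighter than 18.2% of units, fell among those left out. Calls over all units, 0 in each comparison above, rose with array weights to 1193 (3 against 0 ppb), 354 (30 against 0 ppb), 17 (3 against 0.3 ppb), 61 (30 against 0.3 ppb) and 2212 (30 against 3 ppb). With the block they were 1 (30 against 0 ppb) and 3 (30 against 0.3 ppb), and they reached at most 4 under any other alternative. Most features of the gene were dimmer than the array median, and whether this limits the precision was not tested.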
